A study of Mus musculus with 2 samples.

Results

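The genes that make prostaglandin E2 and the receptors that bind it were followed in bone marrow-derived macrophages (BMDMs) exposed to the supernatant of apoptotic cells. The set holds 8 genes, chosen by name as Pla2g4a, Ptgs1, Ptgs2, Ptges, Ptges2, Ptges3, Ptger2 and Ptger4. Of these, 6 are among the 18194 genes to which the array annotation gave at least 1 probe set of their own, with 10 such probe sets in all, and all 6 were measured. Both probe sets of Ptges3 were shared with the pseudogene Ptges3-ps and no probe set was listed for Ptgs1, so neither gene is described. After 1 hr Ptgs2 was 9.10-fold higher in supernatant-treated than in medium-treated cells, Ptger2 was 1.62-fold higher and Ptger4 was 1.69-fold lower, while Pla2g4a (ratio 1.04) and Ptges2 (ratio 1.10) differed little and Ptges was dim.

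An array held RNA of BMDMs kept for 1 hr with the supernatant of apoptotic W3 cells, and another held RNA of BMDMs kept for 1 hr with medium. The macrophages of both groups were grown with M-CSF for more than 7 days from the bone marrow of C57BL/6J females that were 8 weeks old. W3 is a mouse T cell line that carries Fas, the receptor for Fas ligand (FasL). These cells were exposed to FasL during 30 min, then washed and left in medium containing 1% FCS, from which the supernatant was taken after 60 min. The control medium is given as RPMI with 10% FCS, so the supernatant and the serum content cannot be told apart, and no array held the supernatant of living W3 cells. Each condition has 1 array and so no replicate error, and neither an SD nor a p-value can be given for any difference.

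Prostaglandin E2 is a short-lived lipid mediator that macrophages release in inflammation. Cytosolic phospholipase A2, the product of Pla2g4a, frees arachidonic acid from membrane phospholipids. The cyclooxygenases COX-1 (Ptgs1) and COX-2 (Ptgs2) turn it into prostaglandin H2, and the synthases of Ptges, Ptges2 and Ptges3 turn that into prostaglandin E2. On macrophages the lipid acts through EP2 (Ptger2) and EP4 (Ptger4), receptors that couple to the stimulatory G protein and raise cAMP. COX-1 is usually made constantly, whereas COX-2 is made on demand from a short-lived mRNA.

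The stretches around the annotated starts of Ptgs2, Ptger2 and Ptger4 are shown because these 3 genes were the members past 1.5-fold, in different directions. They come from RefSeq on build GRCm38.p6, where all 8 genes matched, and are written 5′ to 3′ on the gene's strand. Capitals mark every match to the motifs searched, on either strand. The motifs were the cAMP response element TGACGTCA and its core CGTCA, which the full element contains, the E-box CACGTG, the AP-1 motif TGANTCA, the palindromic C/EBP motif TTGCGCAA, the TATA motif TATAAA and the NF-kB motif.
Ptgs2, 250 bases before the start, chr1:150099781-150100030, + strand: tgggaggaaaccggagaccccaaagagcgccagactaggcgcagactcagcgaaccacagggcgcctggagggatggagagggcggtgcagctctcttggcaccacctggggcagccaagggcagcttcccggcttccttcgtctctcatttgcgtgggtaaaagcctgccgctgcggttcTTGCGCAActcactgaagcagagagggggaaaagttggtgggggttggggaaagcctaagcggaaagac
Ptgs2, first 30 bases from the start, chr1:150100031-150100060, + strand: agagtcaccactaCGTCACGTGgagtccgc
Ptger2, 250 bases before the start, chr14:44987861-44988110, + strand: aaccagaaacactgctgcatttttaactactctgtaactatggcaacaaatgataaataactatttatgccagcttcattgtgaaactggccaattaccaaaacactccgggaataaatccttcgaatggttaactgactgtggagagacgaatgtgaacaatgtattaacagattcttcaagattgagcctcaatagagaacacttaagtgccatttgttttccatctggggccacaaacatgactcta
Ptger4, 250 bases before the start, chr15:5244188-5244437, - strand: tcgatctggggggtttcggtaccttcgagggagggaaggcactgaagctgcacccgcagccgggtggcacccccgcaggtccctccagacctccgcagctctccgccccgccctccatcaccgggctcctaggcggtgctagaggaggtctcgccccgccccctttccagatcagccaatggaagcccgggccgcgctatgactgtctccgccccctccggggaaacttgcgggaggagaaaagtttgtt

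The C/EBP palindrome of Ptgs2 began 69 bases before the annotated start, a motif held by 0.183% of 32851 promoter windows of the same 300 bases (250 before and 50 after a start). The CGTCA core began at base 14 after the annotated start and overlapped the E-box, which began at base 17. All positions count from the RefSeq start, and where transcription begins in these cells was not measured. CGTCA was held by 20.8% of all windows and CACGTG by 7.15%. The full cAMP response element was held by 1.79% of windows, the AP-1 motif by 7.81%, TATAAA by 13.6% and the NF-kB motif by 8.46%. The Ptgs2 window had none of these, and sites outside the window or with other letters were not searched. Ptger2 and Ptger4 had no match to any of the 7 motifs in their windows, and neither had Ptgs1 and Ptges. The motifs of Ptgs2 were partly shared with members that differed little or were not measured. Ptges2 had an E-box 77 bases before its start, and Ptges3 had CGTCA at base 12 after its start and an NF-kB match. Pla2g4a had a TATAAA match 200 bases before a start. The C/EBP palindrome was found in Ptgs2 alone among the 8 genes. The 250 bases before the start held 38.0% G and C in Ptger2, against 66.8% in Ptger4 and 61.6% in Ptgs2. A match is a match of letters only, and no binding was measured here.

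Signals are MAS5 intensities on a linear scale. Olfactory and vomeronasal receptors, which macrophages are assumed not to make, gave the level of background. The 95th percentile of their 80 probe sets was 32.1 with the supernatant and 38.4 with medium, and the higher value served as the floor to which dimmer signals were raised before ratios were taken. Where 1 of the 2 signals had been raised, the printed fold is only a bound and follows the words "at least", and a gene counted as within 2-fold may lie past it. The brightest probe set by mean signal stood for its gene. Genes over the floor on either array are called measured, and there were 11977 of them. The median signal over all probe sets was 49.3 with the supernatant and 53.0 with medium. The ratio of the 3′ to the 5′ control probe set was 1.21 with the supernatant and 1.16 with medium for Actb, and 0.964 with the supernatant and 0.969 with medium for Gapdh. All 8 macrophage markers were above the floor on both arrays, with log2 ratios between -0.16 and 1.16, the highest being that of Mertk. Of the 7 T cell markers with a probe set, 6 did not exceed the floor on either array, among them Cd3d, Cd3e and Thy1. The remaining marker, Cd28, was well above the floor, at 283 with the supernatant and 393 with medium. The summed signal of the 7 was 326 with the supernatant and 483 with medium, most of it from Cd28. Of 18 markers of neutrophils, mast cells, stromal cells, dendritic cells and B cells with a probe set, 11 did not exceed the floor on either array. The 3 measured neutrophil markers all read higher with the supernatant. S100a8 was 1.18-fold higher, S100a9 read 73.0 with the supernatant and 5.85 with medium (at least 1.90-fold higher), and Elane read 51.8 with the supernatant and 9.89 with medium (at least 1.35-fold higher). The summed signal of all 4 neutrophil markers with a probe set was 603 with the supernatant and 416 with medium. The part of other cells in the members' differences was not tested.

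Of the 6 measured members, 1 was at least 2-fold higher with the apoptotic cell supernatant and 0 were at least 2-fold lower. Over all measured genes these shares were 0.96% (115 genes) and 0.843% (101 genes). At 1.5-fold, a threshold added after the values were seen, 2 members were higher (Ptgs2 and Ptger2) and 1 was lower (Ptger4), against 3.71% and 4.47% of all measured genes. The median log2 ratio of the 6 members was 0.10, and that of all measured genes was -0.02. The difference was thus uneven along the pathway, with Ptgs2 far from the other members and the receptors apart from each other.

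**Figure D1:**
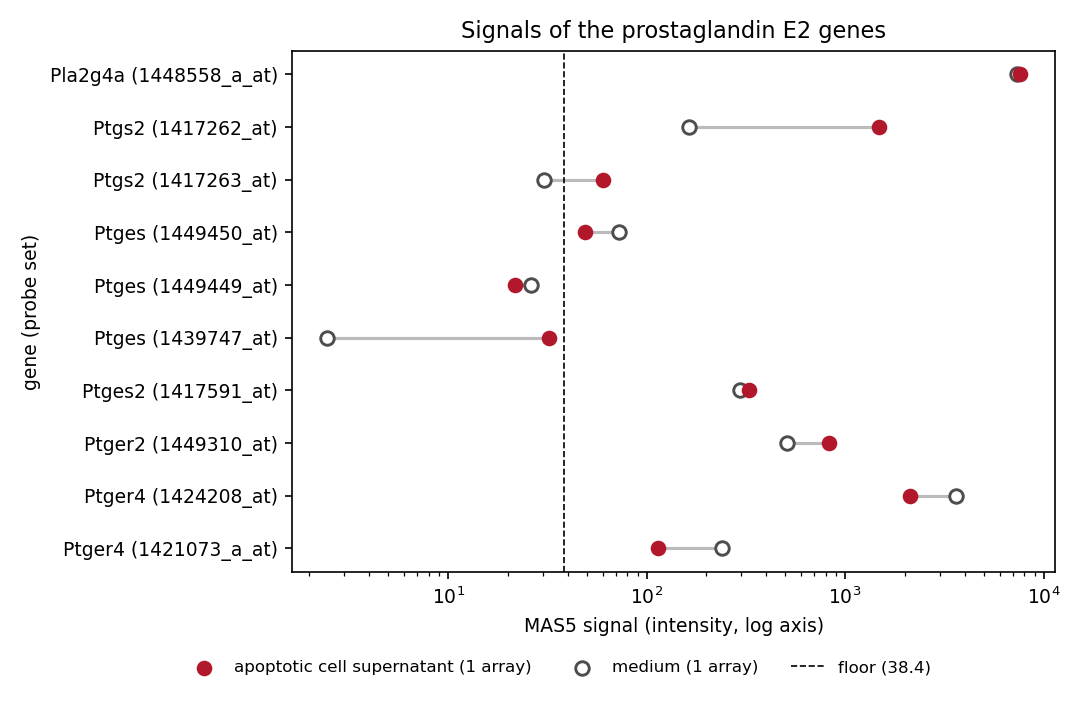
MAS5 signal (intensity, log axis) of each of the 10 single-gene probe sets of the 6 measured genes, with apoptotic cell supernatant (filled red circles) and with medium (open circles), 1 array each. The dashed line marks the floor (38.4). Ptgs2 on its brighter probe set shows the widest gap above the floor (1486 with the supernatant and 163 with medium), both Ptger4 probe sets lie lower with the supernatant, and the wide gap of 1 Ptges probe set lies wholly under the floor.

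The first step of the pathway differed little. Pla2g4a, which encodes the phospholipase that supplies arachidonic acid, read 7639 with the supernatant and 7348 with medium, a ratio of 1.04. Its single probe set was 199 times the floor with the supernatant and 191 times with medium, so this ratio does not rest on dim signals.

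Ptgs2, the inducible cyclooxygenase, was the member with the largest difference. Its brighter probe set read 1486 with the supernatant and 163 with medium, 9.10-fold higher (log2 ratio 3.19). This placed Ptgs2 at rank 9 of 11977 measured genes from the highest ratio. The medium signal was 4.25 times the floor, so Ptgs2 was above background with medium alone.
The other Ptgs2 probe set was far dimmer. It read 60.2 with the supernatant and 30.6 with medium, the second of which is under the floor, and was at least 1.57-fold higher. Both probe sets were thus higher with the supernatant, but they differed in size, and the highest receptor probe set on either array (62.4) was brighter than the dimmer one. With the mean log2 signal of both probe sets, each raised to the floor where dimmer, Ptgs2 was at least 3.78-fold higher (299 with the supernatant and 79.2 with medium).

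Neither of the measured prostaglandin E2 synthases was 2-fold higher or lower at 1 hr. Ptges encodes mPGES-1, the inducible synthase that is often coupled to COX-2. Its brightest probe set read 48.7 with the supernatant and 72.3 with medium, 1.48-fold lower, at 1.27 times the floor with the supernatant and 1.88 times with medium. The supernatant signal was under that of the highest receptor probe set (62.4), and the medium signal was over it. The other 2 Ptges probe sets did not exceed the floor on either array, at 21.8 and 32.1 with the supernatant against 26.1 and 2.45 with medium. For the second of these the deposited signals give a ratio of 13.1, and no fold is given since both lie under the floor.
Ptges2 encodes mPGES-2, a synthase that is usually made constantly. It read 326 with the supernatant and 296 with medium, a ratio of 1.10, on its single probe set.

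The EP receptors differed in opposite directions. Ptger2, the gene of EP2, read 826 with the supernatant and 511 with medium on its single probe set, 1.62-fold higher (log2 ratio 0.69). It stood at rank 316 of 11977 from the highest.
Ptger4, the gene of EP4, read 2131 with the supernatant and 3608 with medium on its brighter probe set, 1.69-fold lower (log2 ratio -0.76). Its other probe set read 114 with the supernatant and 241 with medium, 2.12-fold lower, so both probe sets were above the floor on both arrays and lower with the supernatant. Ptger4 stood at rank 281 of 11977 from the lowest ratio. In bulk RNA, fewer cells that carry a transcript and less of it per cell cannot be told apart.

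**Figure D2:**
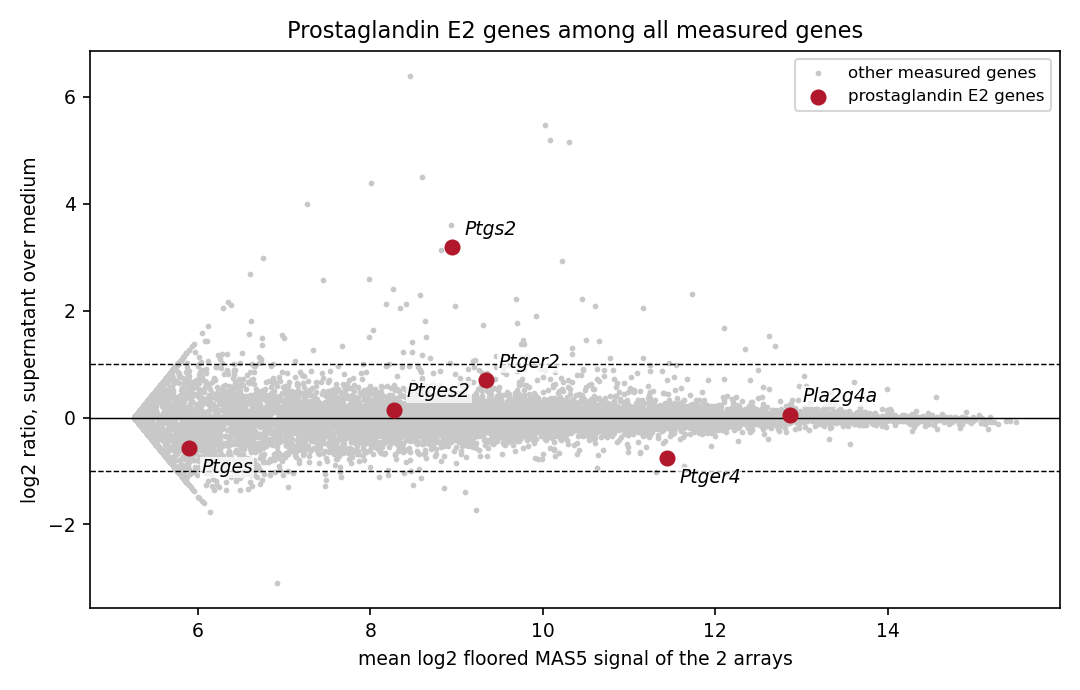
Log2 ratio of supernatant to medium, taken after flooring, against the mean log2 floored signal of both arrays for 11977 measured genes (grey), with the 6 prostaglandin E2 genes in red and dashed lines at a 2-fold difference. Ptgs2 (3.19) lies above nearly all grey points, Ptger4 (-0.76) at the lower edge of it at its brightness, and Ptges within the wide spread of dim genes.

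The 3 genes whose ratio lay closest to that of Ptgs2, out of 10696 genes over the floor with supernatant and with medium alike, were Dusp5, Gm6377 and Egr2. Dusp5, a phosphatase that inactivates ERK, read 1331 with the supernatant and 152 with medium, 8.75-fold higher, a distance of 0.06 on the log2 scale. Gm6377 was 7.62-fold higher (3297 with the supernatant and 432 with medium). Egr2, an immediate early transcription factor, was 12.2-fold higher (1706 with the supernatant and 140 with medium). With 2 arrays, likeness here means a similar ratio and nothing more.

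The wider eicosanoid pathway and the proteins that handle Ptgs2 mRNA or EP signalling were described with lists of 75 genes, of which 69 had a single-gene probe set and 58 were measured. Of these 58, 1 was at least 2-fold higher and 0 were at least 2-fold lower, and their median log2 ratio was -0.01. No gene of these lists came near Ptgs2, the highest log2 ratio being 1.00.

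Among 19 measured genes of arachidonate supply none passed 2-fold, and the median log2 ratio was -0.04. Pla2g5 and Pla2g10, secreted phospholipases, had the largest ratios of this list. Pla2g5 read 78.2 with the supernatant and 55.1 with medium (1.42-fold higher), and Pla2g10 read 5.93 with the supernatant and 68.8 with medium (at least 1.79-fold lower). All 5 measured synthases of other prostanoids lay between -0.26 and 0.15 on the log2 scale. Hpgds, a prostaglandin D2 synthase, read 1369 with the supernatant and 1535 with medium, and Prxl2b, a synthase of F-type prostaglandins, read 565 with the supernatant and 676 with medium. The enzymes of Hpgds and Prxl2b compete with the prostaglandin E2 synthases for prostaglandin H2.

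Of 5 measured genes of prostaglandin transport and breakdown, none passed 2-fold. Hpgd, which encodes the dehydrogenase that inactivates prostaglandin E2, read 993 with the supernatant and 817 with medium (1.21-fold higher), and its other probe set was 1.28-fold higher. Slco2a1, the prostaglandin uptake transporter, read 67.1 with the supernatant and 39.0 with medium (1.72-fold higher), but another of its probe sets was at least 1.36-fold lower and the remaining 2 did not exceed the floor on either array.
Of the 7 other prostanoid receptors 3 were under the floor on both arrays by their brightest probe sets, Ptger1, Ptgdr2 and Ptgfr. Tbxa2r, the thromboxane receptor, read 70.2 with the supernatant and 36.7 with medium, at least 1.83-fold higher. Ptger3, the gene of EP3, read 26.8 with the supernatant and 52.4 with medium, at least 1.37-fold lower. EP2 and EP4 were thus the EP receptors whose genes read well above background on these arrays.

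The neighbouring lipoxygenase branch, which turns arachidonic acid into leukotrienes, had 9 measured genes with a median log2 ratio of 0.01. Its largest ratios were those of Mgst2, a microsomal glutathione transferase that can form leukotriene C4 (184 with the supernatant and 294 with medium, 1.60-fold lower), and Alox5, the 5-lipoxygenase (225 with the supernatant and 288 with medium, 1.28-fold lower). The 7 measured genes that couple EP2 and EP4 to their signals lay between -0.20 and 0.17 on the log2 scale. Gnai3, an inhibitory G protein subunit, had a log2 ratio of -0.20 and Arrb2, an arrestin that takes part in receptor desensitization, 0.17.

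Of 9 measured genes for proteins that bind Ptgs2 mRNA, 1 passed 2-fold. Zc3h12a, which encodes the RNase Regnase-1, read 342 with the supernatant and 171 with medium, a log2 ratio of 1.00 and so just at the 2-fold threshold, while its dimmer probe set was 1.19-fold lower. With the floor as a pseudocount 0 genes of the wider lists were 2-fold higher. Zfp36, the gene of tristetraprolin, a protein that binds AU-rich elements and promotes mRNA decay, read 7843 with the supernatant and 4248 with medium, 1.85-fold higher. The other 7 lay between -0.20 and 0.10 on the log2 scale, among them Elavl1, the gene of the stabilizing protein HuR (ratio 0.991).

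**Figure D3:**
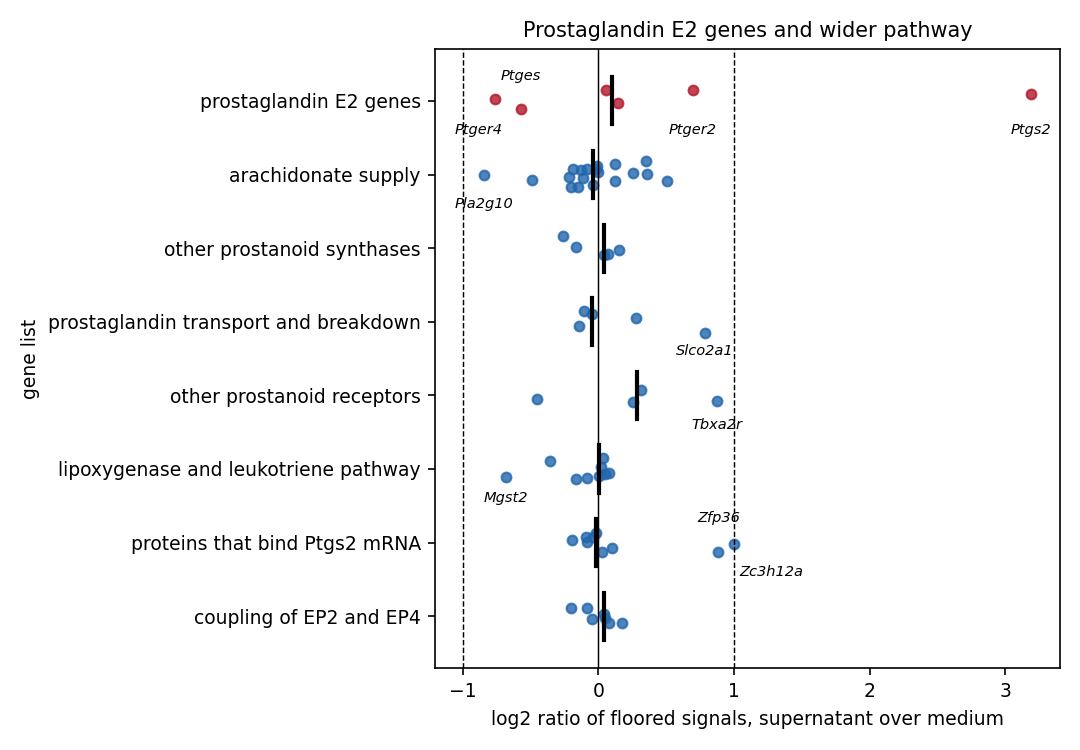
Log2 ratio of supernatant to medium, taken after flooring, for the 6 measured prostaglandin E2 genes (red) and the measured genes of 7 wider lists (blue), with black bars at the medians and dashed lines where a gene would be 2-fold higher or lower. Ptgs2 (3.19) stands alone to the right, and Zc3h12a (1.00) is the only gene of the wider lists to reach the dashed line.

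The direction of each member was the same in every setting that gave a value, but several settings could not alter some ratios. Pla2g4a, Ptges2 and Ptger2 each have a single probe set above even the doubled floor. Raising, lowering or removing the floor and averaging probe sets could not alter their ratios. The same changes of the floor could not alter Ptgs2 or Ptger4, whose brightest probe sets also exceeded the doubled floor on both arrays. Leaving out suffixed probe sets could not alter Ptgs2, Ptges, Ptges2, Ptger2 or Ptger4, whose brightest probe sets have no suffix. Ptges was also unaltered by removing or lowering the floor. Those settings are therefore no check on the genes named with them. Ptgs2 was between 3.78-fold and 9.34-fold higher over 11 settings, the lowest being a bound, Ptger2 between 1.57-fold and 1.66-fold higher, and Ptger4 between 1.65-fold and 1.89-fold lower. Pla2g4a stayed between 1.03 and 1.07 and Ptges2 between 1.09 and 1.15. Pla2g4a gave no value without suffixed probe sets, since its only probe set has a suffix. Ptges gave a value in 9 settings, between 1.14-fold and 1.48-fold lower, because with the floor 2 times as high, or with the mean of its probe sets floored after averaging, it was under the floor on both arrays.

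**Figure D4:**
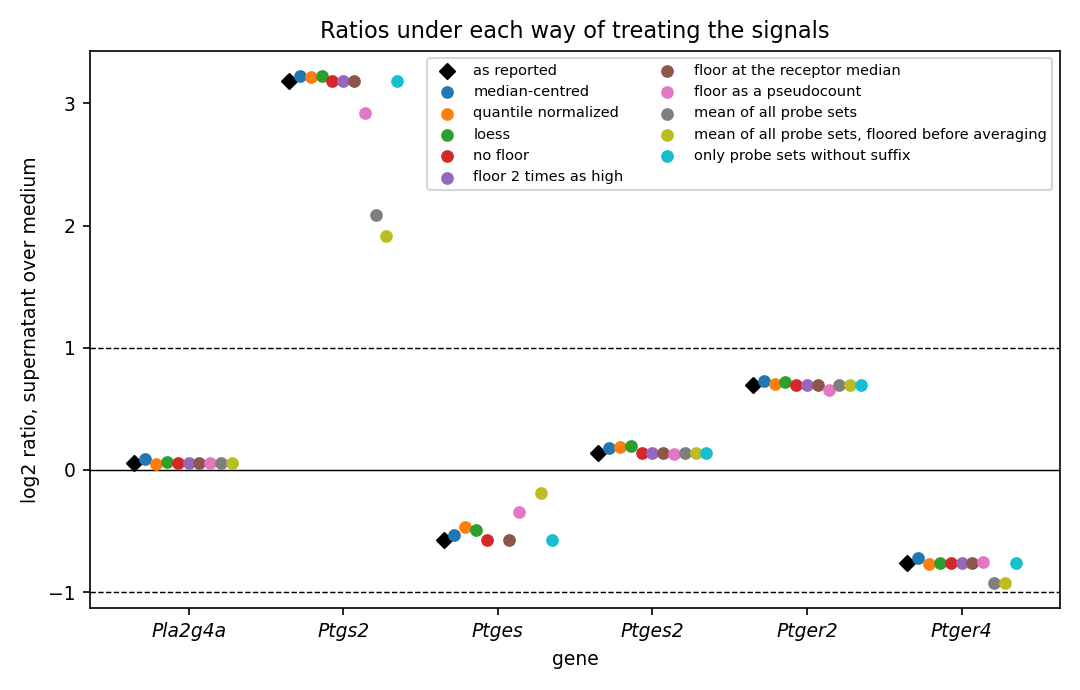
Log2 ratio, supernatant over medium, of each measured prostaglandin E2 gene as reported (black diamond) and under up to 10 other ways of treating the signals (circles; 9 for Pla2g4a and 8 for Ptges), with dashed lines at a 2-fold difference. Ptgs2 stays above the upper line throughout, with its lowest value (1.92) for the mean of probe sets floored before averaging, and Ptger2 and Ptger4 keep to their own sides of 0.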

How the data were processed

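BMDM RNA was read on Affymetrix mouse genome arrays, 1 for each condition. The values that the authors deposited are MAS5 signals, that is, linear intensities. The 2% trimmed mean over all 45101 probe sets was 500.0 with supernatant and with medium, so the scale is a single factor per array.

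Groups came from the labels. By the platform annotation, 34958 probe sets had 1 gene symbol and 932 had several, which were given to no gene, while 9211 were unlisted. RefSeq held the gene identifier of 34754 probe sets, and 0 symbols changed. No test was run. The members and lists were chosen with earlier results of these data known. Named genes were all members, the 2 genes of each list with the largest absolute log2 ratio and any past 2-fold, and the 3 genes closest to Ptgs2. Further genes (Ptger1, Ptgdr2, Ptgfr, Elavl1 and the markers) were named after their values were seen. The 7 lists held genes of arachidonate supply, other prostanoid synthases, prostaglandin transport and breakdown, other prostanoid receptors, the lipoxygenase and leukotriene pathway, proteins that bind Ptgs2 mRNA, and coupling of EP2 and EP4. Markers covered macrophages, T cells and 5 other cell types.

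Alternatives altered 1 choice at a time. They were 3 scalings (centring on the median, quantile normalization, loess spanning 30%), 4 ways to handle dim values (as deposited, a floor doubled to 76.8, a floor lowered to the receptor median of 9.56, the floor as a pseudocount) and 2 choices of probe set (the mean log2 signal of all, or those lacking an _s, _x or _a suffix). For the members, the mean of probe sets floored before averaging was added after the values were seen. A ratio was held to have moved when it differed by more than 0.25 on the log2 scale, the SD of the disagreement between the 2 brightest probe sets of 5196 genes divided by the square root of 2. This SD covers no error between arrays. A count was held to have moved when it differed by more than 1.5-fold from the reported count, or by any amount where either count was 0. The steps were tested on simulated data in which folds were set only for bright genes. That test does not cover flooring, nor genes as dim as Ptges or as Ptgs2 with medium. Versions were Python 3.11.15 with matplotlib 3.10.9, statsmodels 0.14.6, scipy 1.17.1, pandas 2.3.3 and numpy 2.4.6.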

Additional observations from a re-analysis of the deposited data

How the results depend on the processing

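No paired analysis was possible because there was a single array for medium and a single array for the supernatant. For the same reason no replicate could be left out, and precision is limited by the number of arrays. Of 129 results under alternatives, which include the counts at the added 1.5-fold threshold, 113 stayed as reported by the rules above and 16 moved. The 113 include ratios that a setting could not alter and counts that differed by up to 1.5-fold, so their number does not measure stability. The log2 ratio of Ptgs2, 3.19 as reported, was 2.92 with the floor as a pseudocount and 2.08 with the mean of all probe sets, in which its dim probe set counts as much as its bright one and the unfloored medium signal of the dim one enters. With probe sets floored before averaging, an alternative added after the values were seen, it was 1.92, and that of Ptges, -0.57 as reported, was -0.19, as 2 of its 3 probe sets then stand at the floor on both arrays. The numbers of all measured genes past 2-fold depended most on the floor. Genes at least 2-fold higher numbered 115 as reported, 1865 without a floor and 1006 with the floor lowered to the receptor median, while 101 genes were at least 2-fold lower as reported, 2116 without a floor, 1210 with the lowered floor and 27 with the doubled floor (77 higher). The numbers higher and lower were 124 and 85 when median-centred, 137 and 66 when quantile normalized, 131 and 69 with loess, and 167 and 157 with the mean of all probe sets. In the wider lists the number at least 2-fold higher, 1 as reported, was 0 with the pseudocount. The number at least 2-fold lower, 0 as reported, was 4 without a floor, 4 with the lowered floor, 1 with the pseudocount and 1 with the mean of all probe sets. Among the members the count of 1 higher (Ptgs2) and 0 lower at 2-fold was the same in the other 9 settings for which counts were made.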
